A study of Homo sapiens with 29 samples.

Results

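The DUSP family of MAP kinase phosphatases was followed through a schedule of BRAF inhibition in WM239A cells, a human metastatic melanoma line. The genes were taken by symbol: DUSP1, DUSP2, DUSP4, DUSP5, DUSP6, DUSP7, DUSP8, DUSP10, DUSP14 and DUSP16, which are 10 of the 60675 genes in the deposited count table. All 10 passed the filter on low counts, as did 20494 genes in all. Polyadenylated RNA was counted in 29 libraries of 10 groups, with 3 libraries in each group except week 4 under continuous drug, which had 2. In 9 groups the cells overexpressed BRAF-V600E, the mutant kinase that drives ERK signalling in many melanomas. These were untreated cells and cells given LGX818 at 500 nM for 20 hours or for 7 days, the second of which is called week 1. LGX818, or encorafenib, blocks the BRAF kinase. The continuous arm kept the drug for 14, 21 or 28 days in all (weeks 2, 3 and 4). The intermittent arm took it in turns of 7 days, so that week 2 cells were off drug, week 3 cells were rechallenged and week 4 cells had the drug removed for the second time. The tenth group was WM239A cells with the empty vector and no drug. The labels name neither the promoter of the added kinase nor clones or separate cultures, so p-values measure the spread between these libraries. No untreated cells were sampled late, so time in culture and drug history cannot be told apart in comparisons of weeks 1 to 4 with untreated cells. The same holds for comparisons between different weeks.

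MAP kinase phosphatases remove phosphate from both the threonine and the tyrosine of the activation loop of ERK, JNK and p38, and so switch these kinases off. DUSP1, DUSP2, DUSP4 and DUSP5 are nuclear enzymes whose genes are induced by MAP kinase signalling. DUSP6 and DUSP7 are cytoplasmic and prefer ERK, while DUSP8, DUSP10 and DUSP16 prefer JNK and p38. DUSP14 is a small atypical member without the MAP kinase binding domain of the others. In melanoma with mutant BRAF, DUSP4 and DUSP6 are known as feedback genes whose transcripts follow ERK activity.

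Library totals ran from 22934039 to 35804978 counts, and mitochondrially encoded genes held group means of 10.2% to 19.5% of them, the highest at 20 hours. BRAF stood at 895 ± 7.17 CPM (SD, n = 3) in untreated BRAF-V600E cells and 40.2 ± 2.83 CPM in vector cells. CPM here is the count scaled to the size of its library, with TMM factors that correct for library composition. BRAF stood at 3232 ± 59.9 CPM at week 2 off drug and 3404 ± 83.9 CPM at week 4 off drug, and on-drug group means ran from 700.4 ± 23.8 CPM at 20 hours to 1082 ± 48.5 CPM at week 2 continuous. Of 8 melanocyte lineage markers, 7 or 8 were above 1 CPM in every group and none was at 0, but their summed level moved with the schedule. It was 8077 to 8233 CPM at 20 hours, 821 to 887 CPM at week 1, 317 to 363 CPM at week 2 continuous, 408 to 533 CPM in the on-drug groups of weeks 3 and 4, 592 to 620.5 CPM at week 2 off drug and 966 to 1032 CPM at week 4 off drug, against 2370 to 2484 CPM in untreated cells and 2829 to 2954 CPM in vector cells. The part of BRAF or of these markers in the DUSP results was not tested. Replicate 3 of week 2 continuous and replicate 1 of week 3 rechallenged stood apart from both other libraries of their groups. The table's column names put the week 3 intermittent libraries off drug, whereas the sample labels put them on drug, and the labels were followed. In those 3 libraries BRAF, which is not among the 10 genes, stood at 853 to 1160 CPM. It had 3170 to 3289 CPM at week 2 off drug and 3333 to 3497 CPM at week 4 off drug. Every statement on rechallenge rests on that assignment.

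The 250 bases before RefSeq's transcription start are shown for 5 members whose levels moved in different ways: DUSP6 and DUSP10 were highest off drug, DUSP8 and DUSP16 highest at week 1 on drug, and DUSP1 highest at week 4 on drug. The sequences are RefSeq's on GRCh38.p14, where 8 of the 10 members had an entry, with DUSP4 and DUSP5 the exceptions. Each is written 5′ to 3′ on the minus strand, with motif matches in capitals.
DUSP6, chr12:89352502-89352751: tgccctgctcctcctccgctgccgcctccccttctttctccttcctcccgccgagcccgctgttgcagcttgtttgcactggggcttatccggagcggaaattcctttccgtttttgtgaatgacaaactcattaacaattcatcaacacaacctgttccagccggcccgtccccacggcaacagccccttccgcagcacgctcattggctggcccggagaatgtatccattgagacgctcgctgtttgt
DUSP10, chr1:221742090-221742339: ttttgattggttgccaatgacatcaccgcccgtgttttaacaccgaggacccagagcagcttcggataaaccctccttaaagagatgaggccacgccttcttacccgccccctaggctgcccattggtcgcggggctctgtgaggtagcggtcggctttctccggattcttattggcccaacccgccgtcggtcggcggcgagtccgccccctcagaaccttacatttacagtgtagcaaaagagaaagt
DUSP8, chr11:1572272-1572521: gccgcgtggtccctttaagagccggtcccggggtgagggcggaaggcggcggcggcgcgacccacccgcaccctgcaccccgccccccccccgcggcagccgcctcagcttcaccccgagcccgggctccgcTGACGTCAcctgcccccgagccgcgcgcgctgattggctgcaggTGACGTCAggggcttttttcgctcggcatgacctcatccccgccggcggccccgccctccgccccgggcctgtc
DUSP16, chr12:12562864-12563113: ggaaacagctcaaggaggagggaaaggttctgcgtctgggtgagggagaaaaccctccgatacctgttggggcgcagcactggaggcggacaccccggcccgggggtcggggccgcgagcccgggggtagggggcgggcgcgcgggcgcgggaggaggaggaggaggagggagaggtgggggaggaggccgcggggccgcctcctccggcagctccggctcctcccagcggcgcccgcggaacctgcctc
DUSP1, chr5:172771196-172771445: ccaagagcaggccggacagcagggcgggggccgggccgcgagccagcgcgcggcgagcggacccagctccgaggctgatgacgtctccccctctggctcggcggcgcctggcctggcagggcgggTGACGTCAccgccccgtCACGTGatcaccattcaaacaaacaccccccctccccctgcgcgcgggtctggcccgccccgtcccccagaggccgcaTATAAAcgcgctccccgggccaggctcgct
Both strands were searched for the cyclic AMP response element TGACGTCA, the AP-1 motif TGANTCA, the ETS motif CCGGAAG, the E-box CACGTG and the TATA box TATAAA. The response element was found in 1.65% of all 35116 promoters of that length, and it appeared in DUSP8 at 118 and 74 bases before the start and in DUSP1 at 125 bases before it. DUSP1 also held the E-box, which 6.34% of promoters have, and the TATA box, which 10.7% have. DUSP2 held 1 E-box. The AP-1 motif (6.57% of promoters) and the ETS motif (8.52%) had no match in these windows of the 8 members. DUSP6, DUSP7, DUSP10, DUSP14 and DUSP16 had no match to any of the 5 motifs. For DUSP7, DUSP8 and DUSP16, RefSeq's start lies upstream of the GENCODE 29 gene used below for positions, and no GENCODE 29 transcript of these genes holds the bases just after it, so distances for DUSP8 are from a start that only RefSeq gives here. The DUSP6 window lies inside the GENCODE 29 gene, and the DUSP10 window partly overlaps its own gene. RefSeq also gives DUSP10 a second start, whose window (chr1:221736901-221737150) is not shown and had no match to the motifs. The motifs do not overlap one another in these sequences, and a match is a string of letters, not evidence of binding.

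On GRCh38, in the GENCODE 29 annotation, the nuclear members are DUSP1 (chromosome 5, 172768090 to 172771195), DUSP2 (chromosome 2, 96143166 to 96145440), DUSP4 (chromosome 8, 29333064 to 29350668) and DUSP5 (chromosome 10, 110497838 to 110511544). DUSP6 lies on chromosome 12 (89347232 to 89353271) and DUSP7 on chromosome 3 (52048919 to 52056550). DUSP8 lies on chromosome 11 (1554044 to 1571920), DUSP10 on chromosome 1 (221701424 to 221742176) and DUSP16 on chromosome 12 (12474210 to 12562383). DUSP14 lies on chromosome 17 (37489831 to 37513501). All are protein-coding, DUSP5 and DUSP14 are on the plus strand and the other 8 on the minus strand. DUSP6 shares 1875 exon bases, 40.5% of its exons, with the antisense gene AC024909.2. Whether strand was used in the counting is not given in the sources used here, so how reads in the shared bases were assigned is not known. AC024909.2 held 75 to 113 counts at 20 hours of drug, against 101 to 177 in untreated BRAF-V600E cells, which is 28.0% to 45.0% of the DUSP6 count at 20 hours and 0.969% to 1.43% in untreated cells.

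**Figure D1:**
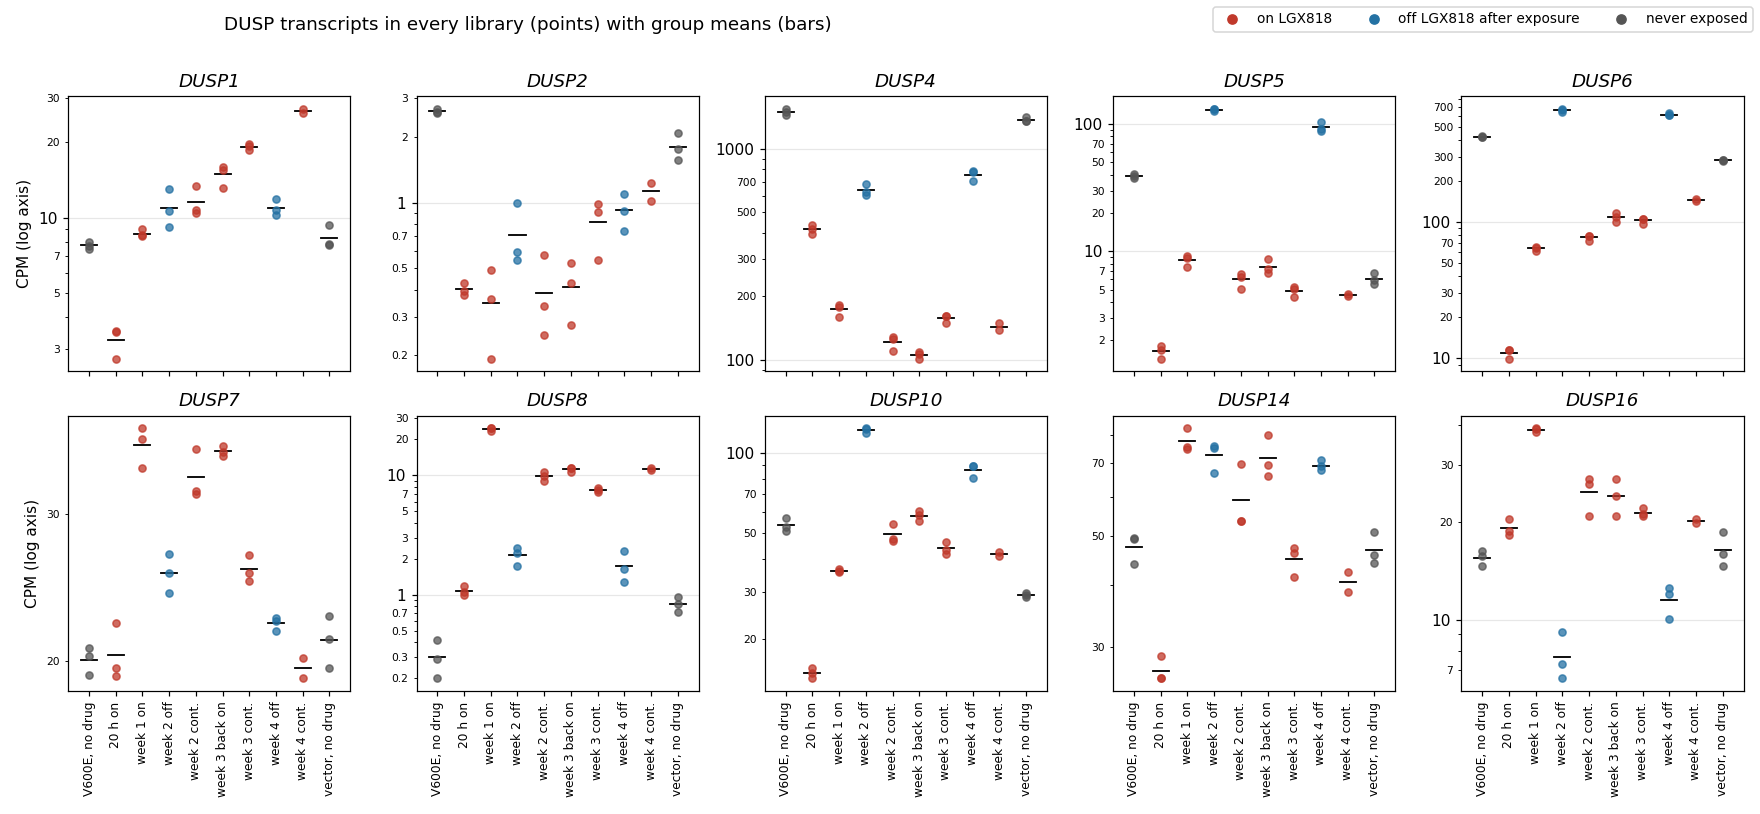
Level of each DUSP gene in CPM on a log axis (vertical) in every library (points), with group means as bars. Groups run along the horizontal axis, red on LGX818, blue off LGX818 after exposure and grey never exposed. DUSP5, DUSP6 and DUSP10 are highest in the off-drug groups, DUSP8 and DUSP16 at week 1 and DUSP1 at week 4 of continuous drug.

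DUSP6, the cytoplasmic ERK phosphatase, fell furthest in the first 20 hours and was above its starting level when the drug was removed. It had 11.5, 11.5 and 9.92 CPM after 20 hours of LGX818, against 417, 419.5 and 426 CPM in untreated BRAF-V600E cells. This is 38.2-fold lower (log2 -5.26 ± 0.08 SE, adjusted p = 1.37e-29, edgeR's quasi-likelihood test with Benjamini-Hochberg adjustment, as throughout). In bulk RNA, fewer cells of a kind and less RNA per cell cannot be told apart. By week 1 it had 60.9, 64.9 and 66.1 CPM, 5.81-fold above 20 hours (log2 2.54 ± 0.07 SE, adjusted p = 4.40e-23) and still 6.58-fold below untreated cells. The continuous arm then held 78.9, 73.05 and 79.3 CPM at week 2, 97.4, 104 and 106 at week 3 and 142 and 147 at week 4, and the libraries of successive weeks did not overlap. Each weekly step passed the test, and week 4 was 2.26-fold above week 1 (log2 1.18 ± 0.07 SE, adjusted p = 1.68e-14). Off drug at week 2 it had 639, 659.8 and 675 CPM, and off drug at week 4 603, 629 and 606 CPM. Both off-drug groups lay wholly above the untreated cells, at week 2 by 1.56-fold (log2 0.64 ± 0.06 SE, adjusted p = 2.79e-10). BRAF too was above untreated cells there, with 3170 to 3289 CPM at week 2 off drug and 3333 to 3497 CPM at week 4 off drug, against 889 to 903 CPM in untreated cells, and its part in the off-drug levels of DUSP5, DUSP6 and DUSP10 was not tested. The highest group mean was 59.8 times the lowest. Among the 10 groups, ordered by level, the only neighbours with overlapping libraries were week 3 rechallenged and week 3 continuous (log2 0.08 ± 0.06 SE, adjusted p = 0.368).

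DUSP7, the other cytoplasmic ERK phosphatase, did not pass at 20 hours, with 19.2, 19.6 and 22.2 CPM, against 20.3, 19.2 and 20.7 CPM in untreated cells (log2 0.02, 95% interval -0.13 to 0.17, adjusted p = 0.862). It rose to 34.03, 37.997 and 36.9 CPM at week 1, 1.81-fold above untreated cells (log2 0.86 ± 0.08 SE, adjusted p = 3.84e-11). In the continuous arm it had 31.9, 31.7 and 35.9 CPM at week 2, 25.5, 24.9 and 26.8 at week 3 and 19.1 and 20.2 at week 4. The week 4 libraries overlapped those of untreated cells. The fall between weeks 3 and 4 (log2 -0.39 ± 0.09 SE, adjusted p = 0.003798) did not pass without replicate 1 of week 4 (adjusted p = 0.0998), whereas week 4 was 1.85-fold below week 1 (log2 -0.89 ± 0.09 SE, adjusted p = 6.57e-10) with no change of call under any alternative. The rechallenged cells had 36.1, 35.2 and 35.6 CPM, all above the 25.5, 24.9 and 26.8 CPM of week 3 continuous (log2 0.47 ± 0.07 SE, adjusted p = 1.01e-05). DUSP7 had the narrowest range of the 10 genes, 1.85-fold between its highest and lowest group means, with 24.1, 26.9 and 25.5 CPM off drug at week 2 and 22.4, 22.5 and 21.7 at week 4.

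DUSP4, a nuclear phosphatase, had the highest level per length of the 10 in untreated cells (207 CPM per kb of exon, against 90.8 for DUSP6, the next), and did not return to it off drug. It had 419, 394 and 436 CPM at 20 hours and 178, 182 and 160.0 CPM at week 1, against 1448, 1549 and 1502 CPM in untreated cells. The fall was 3.602-fold at 20 hours (log2 -1.85 ± 0.07 SE, adjusted p = 1.39e-19) and 8.64-fold at week 1. Unlike DUSP6, which rose between those times, DUSP4 was 2.399-fold lower at week 1 than at 20 hours (log2 -1.26 ± 0.07 SE, adjusted p = 8.92e-16). Under continuous drug it had 125, 129 and 110.1 CPM at week 2, 162, 161 and 149 at week 3 and 149 and 139 at week 4. Off drug it had 606, 624 and 679.9 CPM at week 2 and 775, 702 and 783 CPM at week 4, with all 6 libraries below every untreated and vector library. Week 2 off drug was 2.36-fold below untreated cells (log2 -1.24 ± 0.07 SE, adjusted p = 1.36e-15). The lowest levels were those of the rechallenged cells, 106, 101 and 109.7 CPM, all below the 162, 161 and 149 CPM of week 3 continuous (log2 -0.57 ± 0.07 SE, adjusted p = 1.72e-07). The difference between week 4 and week 2 off drug (log2 0.24 ± 0.07 SE, adjusted p = 0.00838) did not pass without replicate 1 of week 2 off drug (adjusted p = 0.0563). Week 4 continuous against week 1 (log2 -0.27 ± 0.08 SE, adjusted p = 0.00697) did not pass without replicate 2 of week 4 (adjusted p = 0.104).

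DUSP5, a nuclear phosphatase selective for ERK, was the member that differed most between BRAF-V600E and vector cells and that rose furthest when drug was removed. It had 37.6, 40.5 and 38.8 CPM in untreated BRAF-V600E cells, against 6.69, 5.51 and 5.902 CPM in vector cells, a 6.44-fold difference (log2 2.69 ± 0.11 SE, adjusted p = 5.69e-18). After 20 hours of drug it had 1.67, 1.81 and 1.42 CPM, below the vector level and 23.8-fold below untreated BRAF-V600E cells (log2 -4.57 ± 0.13 SE, adjusted p = 5.51e-23). At week 1 it was back to 8.86, 9.203 and 7.47 CPM (log2 2.38 ± 0.14 SE, adjusted p = 2.42e-15, against 20 hours). The continuous arm then held 6.67, 6.33 and 5.05 CPM at week 2, 5.22, 5.07 and 4.37 at week 3 and 4.62 and 4.47 at week 4, the last 1.87-fold below week 1 (log2 -0.90 ± 0.13 SE, adjusted p = 1.09e-06). Off drug DUSP5 had 131, 132 and 127 CPM at week 2 and 88.9, 104 and 92.2 CPM at week 4. Every off-drug library was above every untreated library, and week 2 off drug was 21.6-fold above week 2 continuous (log2 4.44 ± 0.11 SE, adjusted p = 2.15e-24) and 3.34-fold above untreated cells (log2 1.74 ± 0.09 SE, adjusted p = 1.69e-16). The second off-drug level was 1.37-fold below the first (log2 -0.46 ± 0.09 SE, adjusted p = 1.68e-04). Highest and lowest group means differed 79.6-fold. The week 2 continuous libraries overlapped those of vector cells and of week 3 continuous. Week 3 against week 2 did not pass (log2 -0.30 ± 0.12 SE, adjusted p = 0.0691), but did without replicate 3 of week 2, which stood apart (adjusted p = 0.0134).

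DUSP1, the nuclear phosphatase of JNK, p38 and ERK that is itself an immediate early gene, fell at 20 hours and then climbed through the weeks of continuous drug. It had 3.51, 3.49 and 2.73 CPM at 20 hours, against 7.52, 7.98 and 7.72 CPM in untreated cells (log2 -1.26 ± 0.14 SE, adjusted p = 4.77e-09). The continuous arm had 8.98, 8.48 and 8.42 CPM at week 1, 10.7, 10.5 and 13.4 at week 2, 19.7, 19.3 and 18.6 at week 3 and 26.1 and 27.2 at week 4. The libraries of successive weeks did not overlap, and week 4 was 3.09-fold above week 1 (log2 1.63 ± 0.12 SE, adjusted p = 4.49e-12), a call that held in every alternative. The single steps are less firm. That to week 2 (log2 0.42 ± 0.12 SE, adjusted p = 0.00774) did not pass without replicate 3 of week 2 (adjusted p = 0.0875). That to week 4 (log2 0.47 ± 0.12 SE, adjusted p = 0.0135) did not pass without replicate 3 of week 3 (adjusted p = 0.05696) or without replicate 1 or 2 of week 4 (adjusted p = 0.0901 and 0.148). FOS, an immediate early transcription factor gene, averaged 5.38, 35.3, 182 and 309 CPM at weeks 1 to 4 of continuous drug, and EGR1, another, 9.23, 48.4, 289 and 535 CPM. Not all such genes climbed. Of 10 immediate early and stress genes, 3 were higher and 4 lower at week 2 than at week 1 (16% and 13.5% of all genes). At week 4 against week 1, 7 of them were higher and 3 lower (21.1% and 19.9% of all genes). The part of FOS and EGR1 in the DUSP1 climb was not tested. Off drug DUSP1 had 10.6, 13.01 and 9.16 CPM at week 2 and 10.7, 11.9 and 10.2 CPM at week 4, which was 2.44-fold below week 4 continuous (log2 -1.28 ± 0.12 SE, adjusted p = 3.05e-10). The week 2 off-drug libraries overlapped those of week 2 continuous (log2 -0.07, 95% interval -0.31 to 0.16). The rechallenged cells had 15.9, 15.5 and 13.1 CPM, below week 3 continuous (log2 -0.37 ± 0.11 SE, adjusted p = 0.0121), a difference that did not pass without replicate 3 of the rechallenged cells (adjusted p = 0.0929).

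DUSP2, a nuclear phosphatase best known from lymphocytes, was scarce in these cells. It had 0.376, 0.431 and 0.395 CPM at 20 hours and 0.193, 0.4905 and 0.362 CPM at week 1, against 2.60, 2.56 and 2.69 CPM in untreated cells. It fell 6.47-fold at 20 hours (log2 -2.69 ± 0.32 SE, adjusted p = 1.82e-08) and was 7.23-fold below untreated cells at week 1 (log2 -2.85 ± 0.31 SE, adjusted p = 3.28e-09). No later group returned to the untreated level: week 4 continuous had 1.23 and 1.02 CPM, week 2 off drug 0.545, 1.001 and 0.592 CPM and week 4 off drug 0.9199, 0.744 and 1.101 CPM. Week 4 continuous was 3.12-fold above week 1 (log2 1.64 ± 0.36 SE, adjusted p = 3.99e-04). Week 2 off drug against week 2 continuous (log2 0.86 ± 0.36 SE, adjusted p = 0.0414) did not pass without replicate 1 or 3 of week 2 continuous (adjusted p = 0.158 and 0.123) or replicate 2 of week 2 off drug (adjusted p = 0.296). Untreated BRAF-V600E and vector cells (1.57, 2.09 and 1.76 CPM) did not overlap, but the difference did not pass (log2 0.54 ± 0.26 SE, adjusted p = 0.176).

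Among the phosphatases that prefer JNK and p38, DUSP10, like DUSP5 and DUSP6, was higher with added BRAF-V600E, lower at 20 hours and at week 1 of drug, and above untreated cells at week 2 off drug. It had 51.05, 56.8 and 52.6 CPM in untreated BRAF-V600E cells, against 28.8, 29.4 and 29.8 CPM in vector cells, a 1.83-fold difference (log2 0.87 ± 0.07 SE, adjusted p = 5.21e-11). At 20 hours it had 15.5, 14.9 and 14.2 CPM, 3.59-fold below untreated cells (log2 -1.84 ± 0.07 SE, adjusted p = 2.11e-19), and at week 1 36.1, 35.7 and 36.6 CPM (log2 -0.57 ± 0.07 SE, adjusted p = 2.46e-08, against untreated cells). Off drug it had 124, 123 and 119 CPM at week 2 and 80.7, 89.3 and 89.3 CPM at week 4, every library above every untreated one. Week 2 off drug was 2.28-fold above untreated cells (log2 1.19 ± 0.07 SE, adjusted p = 1.06e-15), and week 4 off drug 1.41-fold below week 2 off drug (log2 -0.50 ± 0.07 SE, adjusted p = 6.86e-07). It was higher in rechallenged than in continuous cells at week 3, with 58.4, 55.7 and 60.5 CPM, against 41.7, 46.5 and 43.2 CPM (log2 0.41 ± 0.07 SE, adjusted p = 1.81e-05). Its week 2 continuous libraries had 46.7, 47.6 and 54.1 CPM. Unlike DUSP5 and DUSP6, which stayed below untreated cells on drug, DUSP10 overlapped them there and when rechallenged. Across the 10 group means of log2 CPM, a description with no test, its Pearson r was 0.87 with DUSP5 and 0.82 with DUSP6, and DUSP5 and DUSP6 had 0.86.

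DUSP8 and DUSP16 went the other way, high on drug and low off it. DUSP8 was almost silent without drug, with 0.200, 0.292 and 0.416 CPM (5, 9 and 11 counts) in untreated BRAF-V600E cells, against 0.832, 0.954 and 0.712 CPM in vector cells (log2 -1.45 ± 0.29 SE, adjusted p = 4.30e-04). At 20 hours it had 1.05, 0.991 and 1.19 CPM (log2 1.81 ± 0.28 SE, adjusted p = 2.48e-06, against untreated cells), and at week 1 24.8, 24.6 and 23.6 CPM, which no other group reached. That was 78.99-fold above untreated cells (log2 6.30 ± 0.19 SE, adjusted p = 2.32e-22) and 22.5-fold above 20 hours. In the continuous arm it had 8.97, 9.95 and 10.7 CPM at week 2, 7.87, 7.22 and 7.48 at week 3 and 11.1 and 11.5 at week 4, 2.15-fold below week 1 at the end (log2 -1.11 ± 0.14 SE, adjusted p = 9.57e-08). Off drug it had 2.22, 2.47 and 1.74 CPM at week 2 and 1.64, 2.32 and 1.27 CPM at week 4, and rechallenged 10.7, 11.5 and 11.5 CPM. The on-drug and off-drug libraries from week 1 on did not overlap. Week 2 off drug still stood 6.95-fold above untreated cells (log2 2.80 ± 0.25 SE, adjusted p = 2.77e-11). The 6 fibroblast markers summed to 250 to 262 CPM at week 1, 2182 to 2427 CPM at week 4 continuous and 15.0 to 16.8 CPM at week 2 off drug, against 2.80 to 3.34 CPM in untreated cells. Of the 6, 5 were above 1 CPM at week 1, 6 at week 4 continuous and 1 in untreated cells, with none at 0 in any group. Their part in the DUSP8 and DUSP16 results was not tested.

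DUSP16 had 38.9, 37.9 and 39.1 CPM at week 1, against 15.7, 14.7 and 16.3 CPM in untreated cells, 2.49-fold higher (log2 1.31 ± 0.11 SE, adjusted p = 1.78e-11). The small difference at 20 hours (log2 0.30 ± 0.12 SE, adjusted p = 0.0278) did not pass without any 1 of the 3 untreated libraries (adjusted p = 0.0800, 0.161 and 0.0604) or without replicate 1 or 2 at 20 hours (adjusted p = 0.0675 and 0.103). Off drug it fell below its starting level, to 6.58, 7.29 and 9.12 CPM at week 2 and 12.03, 10.01 and 12.5 CPM at week 4, with every library under every untreated and vector library. Week 2 off drug was 2.02-fold below untreated cells (log2 -1.01 ± 0.12 SE, adjusted p = 2.20e-08) and 3.22-fold below week 2 continuous (log2 -1.69 ± 0.12 SE, adjusted p = 3.50e-13). In the rechallenged cells it had 20.9, 27.3 and 24.1 CPM, 3.13-fold above week 2 off drug (log2 1.65 ± 0.12 SE, adjusted p = 5.71e-13). These overlapped the 22.1, 20.9 and 21.3 CPM of week 3 continuous (log2 0.17 ± 0.11 SE, adjusted p = 0.269).

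DUSP14, the atypical member, had 25.97, 28.7 and 25.9 CPM at 20 hours and 75.5, 82.4 and 74.9 CPM at week 1, against 44.04, 49.3 and 49.6 CPM in untreated cells. It fell at 20 hours (log2 -0.83 ± 0.10 SE, adjusted p = 1.13e-08) and was higher at week 1 (log2 0.70 ± 0.09 SE, adjusted p = 1.12e-07). In the continuous arm it had 53.8, 53.7 and 69.8 CPM at week 2, 41.4, 47.3 and 46.3 at week 3 and 38.7 and 42.3 at week 4, the last 1.92-fold below week 1 (log2 -0.94 ± 0.11 SE, adjusted p = 1.38e-08). In the intermittent arm it had 75.2, 75.9 and 67.1 CPM at week 2 off drug, 79.8, 66.2 and 69.4 CPM rechallenged and 70.97, 69.03 and 67.98 CPM at week 4 off drug, and these libraries overlapped. Rechallenged against week 2 off drug gave log2 -0.02 (95% interval -0.20 to 0.16), and week 4 off drug against rechallenged -0.05 (-0.23 to 0.13). Both later intermittent groups were above their continuous counterparts, at week 3 (log2 0.67 ± 0.09 SE, adjusted p = 9.42e-07) and at week 4 (log2 0.78 ± 0.10 SE, adjusted p = 2.73e-07).

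Added BRAF-V600E alone changed 4 of the genes. Of the 10, 3 rose (DUSP5, DUSP6, DUSP10) and 1 fell (DUSP8), where 17% of all tested genes passed, 7.04% higher and 9.92% lower. The median log2 change was 0.07 over the 10 and -0.00 over all genes. DUSP6 had 417, 419.5 and 426 CPM in untreated BRAF-V600E cells, against 285, 284 and 279 CPM in vector cells. Of 17 other ERK output and feedback genes (Sprouty and SPRED inhibitors, ETV factors, EGR1, FOSL1, CCND1 and others), 8 rose and 3 fell.

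In the first 20 hours of drug 7 of the 10 fell and 2 rose (DUSP8 and DUSP16), leaving DUSP7, where 53.7% of all tested genes passed, 28.4% higher and 25.2% lower. The median log2 change was -1.55 over the 10 and 0.06 over all genes. Of the 17 ERK output genes 16 fell and 1 rose, with a median of -3.70. SPRY4, a Sprouty feedback inhibitor, had 8.56 ± 0.708 CPM (SD, n = 3) at 20 hours, against 1348 ± 54.6 CPM in untreated cells. Of the 9 MAP kinases themselves, 6 were higher and 1 lower, with a median of 0.27. The DUSP16 call did not hold without any 1 of the untreated libraries, or without replicate 1 or 2 at 20 hours (adjusted p from 0.0604 to 0.161).

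By week 1 the set had split, with 4 members above untreated cells (DUSP7, DUSP8, DUSP14, DUSP16) and 5 below (DUSP2, DUSP4, DUSP5, DUSP6, DUSP10), where 54.2% of all tested genes passed, 27.5% higher and 26.7% lower. DUSP1, with 8.98, 8.48 and 8.42 CPM at week 1, against 7.52, 7.98 and 7.72 CPM in untreated cells, did not pass (log2 0.15 ± 0.12 SE, adjusted p = 0.298). Against 20 hours 8 of the 10 were higher and only DUSP4 lower (57.7% of all genes, 28.6% higher and 29.1% lower), with DUSP2 not passing. The medians were 1.35 over the 10 and -0.02 over all genes. Of the 17 ERK output genes 14 also rose between those times, and all 10 immediate early and stress genes did. JUN, one of these, which encodes a substrate of JNK, averaged 224 ± 4.91 CPM at week 1, against 57.8 ± 6.87 CPM at 20 hours.

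Week 4 of continuous drug had only 2 libraries, so its step had less chance of a call than the earlier steps. Under continuous drug the calls were fewer at each weekly step. They numbered 8 of 10 for week 2 against week 1 (29.5% of all genes, 16% higher and 13.5% lower), 7 for week 3 against week 2 (21.3% of all genes, 10.5% higher and 10.8% lower) and 4 for week 4 against week 3 (6.93% of all genes, 3.44% higher and 3.49% lower). The last count was 1 without replicate 1 of week 4 and 2 without replicate 2, and DUSP6 was called in every one of these. The count for week 3 against week 2 ran from 5 to 7 with a library left out and from 5 to 8 under the other alternatives. There DUSP2 and DUSP8 did not pass without replicate 3 of week 2 (adjusted p = 0.0825 and 0.0876). DUSP14 did not pass with the compared groups alone (adjusted p = 0.052). Over the whole span from week 1 to week 4 all 10 passed (41% of all genes, 21.1% higher and 19.9% lower). DUSP1, DUSP2, DUSP6 and DUSP10 were higher and the other 6 lower. DUSP10 (log2 0.21 ± 0.08 SE, adjusted p = 0.0287) was the least secure, since it did not pass without any 1 of the week 1 libraries (adjusted p = 0.107, 0.0703 and 0.0778) or of the week 4 libraries (0.0836 and 0.183). DUSP4 did not pass without replicate 2 of week 4 (adjusted p = 0.104). Of the immediate early and stress genes, 7 of 10 were higher and 3 lower at week 4 than at week 1.

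**Figure D2:**
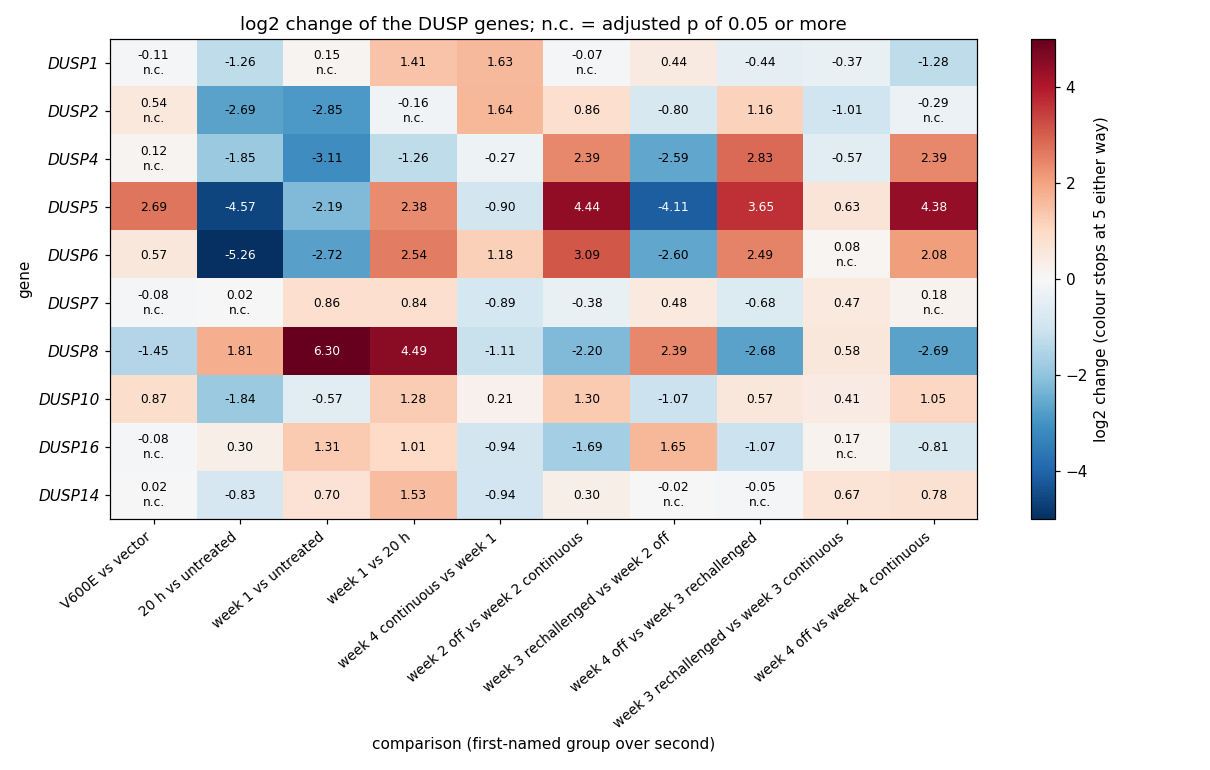
Log2 change of each DUSP gene (rows) in 10 comparisons (columns, first-named group over second), coloured by size up to 5 either way, with n.c. where the adjusted p was 0.05 or more. DUSP5 and DUSP6 carry the deepest falls at 20 hours (-4.57 and -5.26), and DUSP8 the largest rise at week 1 (6.30).

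Removing the drug for 7 days raised DUSP2, DUSP4, DUSP5, DUSP6, DUSP10 and DUSP14 and lowered DUSP7, DUSP8 and DUSP16 against week 2 continuous. These are 9 of the 10, where 55.2% of all tested genes passed, 27.3% higher and 27.9% lower, and the median log2 change was 0.58 over the 10 and -0.04 over all genes. The DUSP2 call did not hold without replicate 1 or 3 of week 2 continuous (adjusted p = 0.158 and 0.123) or without replicate 2 of week 2 off drug (0.296). Of the 17 ERK output genes 14 rose and 3 fell. Against week 1, the point at which the arms parted, 9 also differed, 6 higher and 3 lower (54.5% of all genes, 27.7% higher and 26.8% lower). There DUSP1, DUSP2, DUSP4, DUSP5, DUSP6 and DUSP10 were higher and DUSP7, DUSP8 and DUSP16 lower, while DUSP14 did not pass (log2 -0.09, 95% interval -0.27 to 0.08). DUSP1 did not hold without replicate 2 of week 2 off drug (adjusted p = 0.273), and DUSP2 neither without that library (0.191) nor without replicate 1 of week 1 (0.117). Against untreated cells all 10 differed (60% of all genes, 31.2% higher and 28.8% lower), 7 higher and 3 lower, the lower ones being DUSP2, DUSP4 and DUSP16. SPRY4 had 914 ± 108 CPM at week 2 off drug, against 1348 ± 54.6 CPM in untreated cells, and so was lower as well (log2 -0.56 ± 0.09 SE, adjusted p = 1.38e-06).

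Rechallenge moved 9 of the 10 against week 2 off drug (56.3% of all genes, 27.8% higher and 28.5% lower): DUSP2, DUSP4, DUSP5, DUSP6 and DUSP10 fell and DUSP1, DUSP7, DUSP8 and DUSP16 rose. The DUSP2 call (log2 -0.80 ± 0.34 SE, adjusted p = 0.04696) did not hold without replicate 2 of week 2 off drug (adjusted p = 0.344) or without replicate 2 or 3 of the rechallenged cells (0.182 and 0.0724). Against week 1, the earlier point after 7 days of drug, 6 differed (31.1% of all genes, 16.6% higher and 14.5% lower): DUSP1, DUSP6 and DUSP10 were higher and DUSP4, DUSP8 and DUSP16 lower. DUSP5 had 8.65, 7.197 and 6.76 CPM when rechallenged, against 8.86, 9.203 and 7.47 CPM at week 1 (log2 -0.18, 95% interval -0.39 to 0.04), and this difference passed when the libraries standing apart were left out (adjusted p = 0.0329). Against week 3 continuous, 5 were higher (DUSP5, DUSP7, DUSP8, DUSP10, DUSP14) and 3 lower (DUSP1, DUSP2, DUSP4), where 28.4% of all tested genes passed, 14% higher and 14.3% lower. DUSP1 did not pass there without replicate 3 of the rechallenged cells (adjusted p = 0.0929), and DUSP2 not without replicate 2 or 3 of week 3 continuous (0.0709 and 0.105) or replicate 2 of the rechallenged cells (0.1102).

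The second response to drug was tested against the first, as the change at week 3 from week 2 off drug minus the change at week 1 from untreated cells. It differed for 7 of the 10 (48.3% of all genes, 23.3% higher and 25% lower). DUSP5 changed by -4.11 in the second response and -2.19 in the first, a difference of -1.92 ± 0.14 SE (adjusted p = 9.33e-13). DUSP8 changed by 2.39 and 6.30, a difference of -3.91 ± 0.27 SE (adjusted p = 2.46e-13). DUSP5 ended at 7.54 CPM rechallenged and 8.51 CPM at week 1, while it began at 130.2 CPM off drug and 38.9 CPM untreated. DUSP8 ended at 11.2 CPM rechallenged and 24.3 CPM at week 1 and began at 2.14 and 0.303 CPM. DUSP6 changed by -2.60 and -2.72, and that difference did not pass (log2 0.12, 95% interval -0.05 to 0.30, adjusted p = 0.282).

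**Figure D3:**
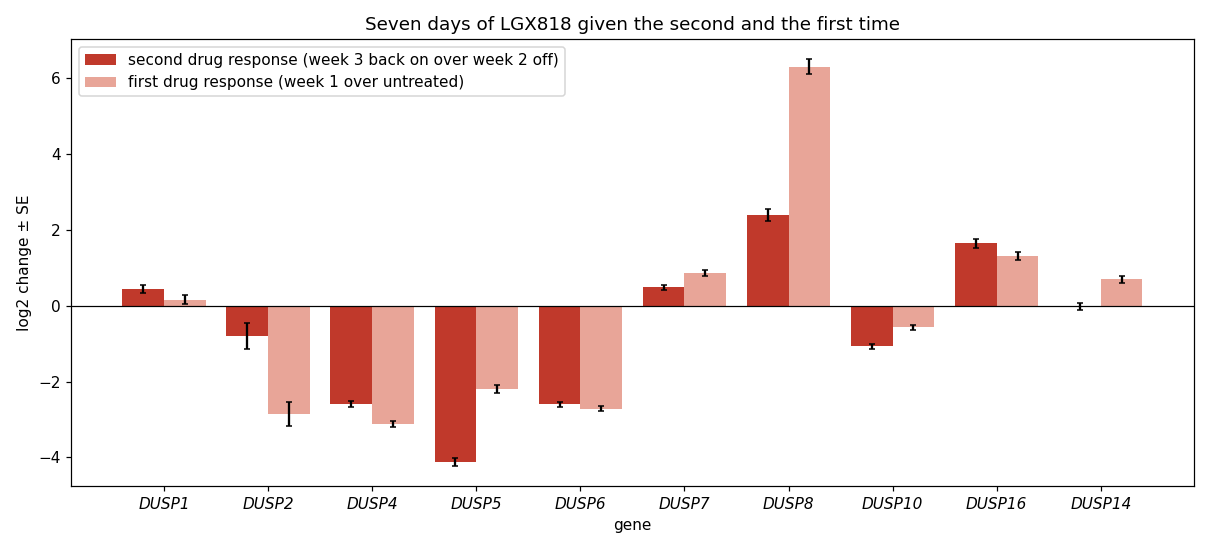
Log2 change (vertical axis, bars, with SE as whiskers) of each DUSP gene over 7 days of LGX818 given the second time (week 3 rechallenged over week 2 off drug, dark) and the first time (week 1 over untreated, pale). DUSP5 fell by more the second time (-4.11 and -2.19), while DUSP8 rose by less (2.39 and 6.30) and DUSP6 changed by -2.60 and -2.72.

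The second withdrawal changed 9 of the 10 against the rechallenged cells (45.5% of all genes, 23.1% higher and 22.3% lower), 5 higher and 4 lower, and 8 against week 4 continuous (51.2% of all genes, 26.1% higher and 25.1% lower), 5 higher and 3 lower. In both comparisons DUSP4, DUSP5, DUSP6 and DUSP10 rose and DUSP1, DUSP8 and DUSP16 fell. The response differed from that of the first withdrawal for 6 of the 10 (17.1% of all genes, 7.6% higher and 9.5% lower). DUSP10 rose by 0.57 the second time and 1.76 the first, a difference of -1.19 ± 0.10 SE (adjusted p = 8.09e-11). DUSP6 rose by 2.49 and 3.36 (difference -0.87 ± 0.09 SE, adjusted p = 1.38e-08), and DUSP4 by 2.83 and 1.88 (difference 0.96 ± 0.10 SE, adjusted p = 1.57e-08). DUSP6 began at 109 CPM rechallenged and 63.9 CPM at week 1, and ended at 613 CPM at week 4 and 658 CPM at week 2 off drug. DUSP4 began at 106 and 173 CPM and ended at 753 and 637 CPM. DUSP16 fell by 1.07 the second time and by 2.33 the first, a difference of 1.26 ± 0.16 SE (adjusted p = 9.48e-07). Between the off-drug groups themselves, 5 of the 10 differed (29% of all genes, 14.6% higher and 14.4% lower), namely DUSP4 and DUSP16 higher and DUSP5, DUSP7 and DUSP10 lower at week 4. The DUSP7 call (log2 -0.20 ± 0.08 SE, adjusted p = 0.0479) did not hold without replicate 2 or 3 of week 2 off drug (adjusted p = 0.2696 and 0.116) or without replicate 1, 2 or 3 of week 4 off drug (0.115, 0.0998 and 0.161). The DUSP4 call there did not hold without replicate 1 of week 2 off drug (0.0563).

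Per kb of exon, the 10 genes summed to 85.2 ± 1.91 CPM per kb at 20 hours (SD, n = 3), 107 ± 3.31 at week 1, 363 ± 5.95 at week 2 off drug and 342 ± 2.36 at week 4 off drug, against 361 ± 9.89 in untreated cells and 294 ± 7.46 in vector cells. The on-drug groups of weeks 2 to 4 lay between 94.5 ± 4.602 and 110.1 ± 5.13. The classes made up different shares of that total before exposure and off drug. The nuclear genes DUSP1, DUSP2, DUSP4 and DUSP5 held 39.5% ± 0.508% (SD, n = 3) of it at week 2 off drug, against 62.7% ± 0.474% in untreated cells. Within this class DUSP4 alone held 24.2%, against 57.2% in untreated cells, while DUSP5 went the other way, with 13.7%, against 4.12%. The cytoplasmic ERK phosphatases DUSP6 and DUSP7 held 40.4% ± 0.484% at week 2 off drug, against 26.1% ± 0.671% in untreated cells. Nearly all of this was DUSP6, with 39.2% and 25.1%. The JNK and p38 phosphatases DUSP8, DUSP10 and DUSP16 held 22.8% ± 0.862% at week 1 and 24.8% ± 0.334% at week 2 continuous, against 5.85% ± 0.114% in untreated cells. Their summed level moved far less, at 24.4 CPM per kb at week 1 and 23.4 at week 2 continuous, against 21.1 in untreated cells. That level was highest at week 2 off drug, at 43.7 CPM per kb, where the share was 12.1%. DUSP10 alone held 41.9 CPM per kb there, while DUSP8 had 0.464 and DUSP16 had 1.34. DUSP14 held 28.9% ± 0.7003% at week 1, against 5.27% ± 0.223% in untreated cells, with 31.1 and 19.1 CPM per kb. A share rises when the total falls, as it did on drug. These shares and levels are descriptions and were not tested.

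**Figure D4:**
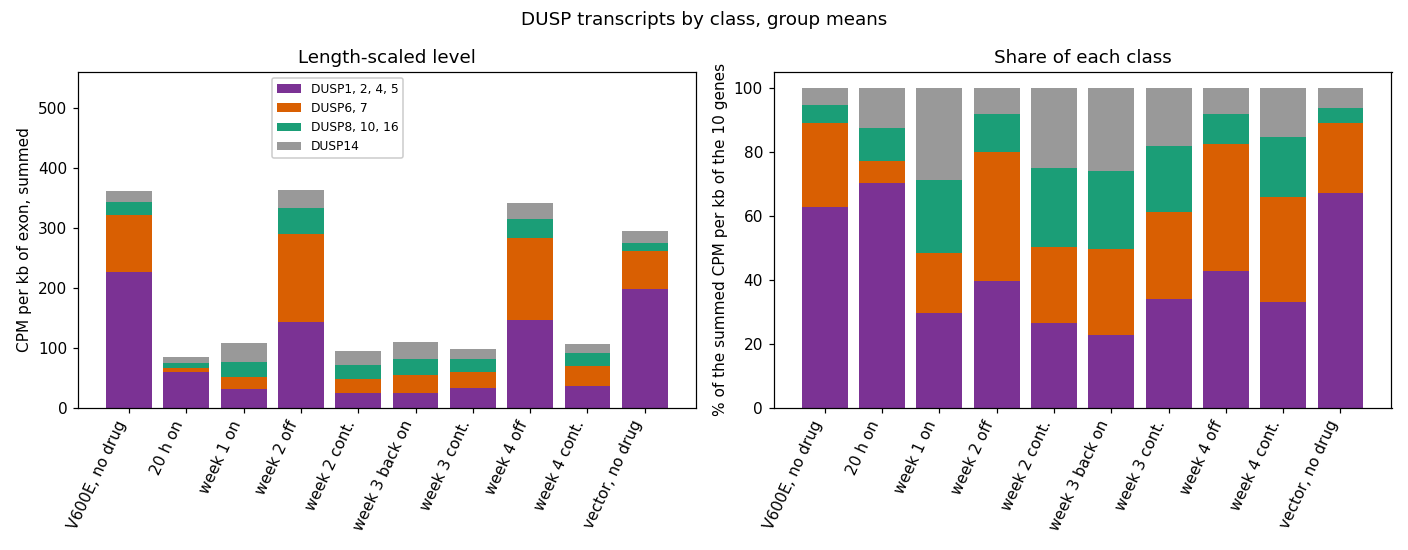
Summed level of the DUSP genes by class in CPM per kb of exon (left) and as a percentage of the sum over the 10 genes (right), as group means along the horizontal axis. The bars stand at 363 at week 2 off drug and 342 at week 4 off drug, against 361 in untreated cells, with a larger share from DUSP6 and DUSP7 at week 2 off drug (40.4%, against 26.1% in untreated cells).

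Of the other MAP kinase phosphatases, DUSP9, a cytoplasmic relative of DUSP6, was scarce, with group means of 0.574 CPM (week 4 continuous) to 3.63 CPM (20 hours). Among the tyrosine phosphatases of MAP kinases, PTPRR was tested, while PTPN5 and PTPN7 did not pass the filter. Of 12 other atypical dual-specificity phosphatases 10 were tested. Of these, 5 rose at 20 hours and the other 5 did not pass, where 53.7% of all tested genes passed, 28.4% higher and 25.2% lower. At week 2 off drug against week 2 continuous 6 rose and 1 fell, where 55.2% of all tested genes passed, 27.3% higher and 27.9% lower. At week 1 against 20 hours 1 rose and 4 fell, where 57.7% of all tested genes passed, 28.6% higher and 29.1% lower. When rechallenged, against week 2 off drug, 1 rose and 5 fell, where 56.3% passed, 27.8% higher and 28.5% lower. The direction of the calls among these 10 genes thus differed between comparisons.

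By pattern over the 10 group means, among 10755 genes with at least 10 CPM in a group, the gene most like DUSP6 was PHLDA2 (Pearson r 0.98), followed by IER3 and SH2B3. The nearest to DUSP4 was NFATC2 (0.99), to DUSP5 DLGAP1-AS2 (0.99), to DUSP10 ZYX (0.98), to DUSP8 CRYAB (0.98) and to DUSP16 LINC01116 (0.98). DUSP1 was nearest to PODNL1 (0.96), DUSP2 to FZD7 (0.97), DUSP7 to STK3 (0.97) and DUSP14 to KCNG1 (0.97). These correlations run over only 10 points that share the drug schedule, and describe the patterns with no test.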

How the data were processed

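The authors deposited 1 table of raw counts per gene, in whole numbers, for 29 libraries of polyadenylated RNA. The submitters' processing notes name HTSeq 0.6.1, HISAT2 2.0.3, Trimmomatic 0.32, SAMtools 0.1.18 and the GRCh38 build. The annotation release and the strand setting are not given in the sources used here. Positions and exon lengths come from GENCODE 29, which matched 57055 of 60675 identifiers, all 10 DUSP genes among them. The 10 genes and the lists beside them were chosen with earlier results of these data known.

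The counts entered edgeR 4.0.16 (R 4.3.3) with TMM factors and filterByExpr. All 29 libraries were fitted together by quasi-likelihood, with 1 coefficient per group and none for the replicate number. P-values were adjusted by Benjamini-Hochberg over the 20494 tested genes within each of 19 comparisons, at a threshold of 0.05. An SE is the estimate over the square root of F, and a 95% interval is 1.96 SE either way. The common biological coefficient of variation was 0.0942. A library stood apart when its chi-square per gene was over 20 against both other libraries of its group. Libraries of 22934039 to 35804978 counts were not thinned, and the fit includes counting error. Differences of drug responses were contrasts of the same fit. All 10 genes were open to naming in every comparison, though for some comparisons the text gives counts and only some of the names. The other listed genes were named by a rule. That rule also takes, for each of the 10, the 3 nearest patterns by Pearson r of log2 CPM (prior count 2), of which the text gives the nearest, and all 3 for DUSP6. BRAF, PTPRR, PTPN5 and PTPN7 are named outside that rule, chosen after their values were seen.

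Alternatives were RLE factors, no count filter, a term for the replicate number, the compared groups alone, each library left out in turn, the libraries standing apart left out together, and DESeq2 1.42.0. With 1 library left in week 4 continuous, the spread came from the remaining groups, so that library is taken to vary as they do. The steps were checked on simulated counts. The plotting library was matplotlib 3.10.9 (python 3.11.15).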

Additional observations from a re-analysis of the deposited data

Results flagged for a closer look

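The drug responses at rechallenge and at the first exposure differed by an interaction test for 7 of the 10 DUSP genes, where 48.3% of all genes did. The values are log2 changes at week 3 from week 2 off drug minus those at week 1 from untreated cells, each ± SE. The differences were 2.05 ± 0.48 for DUSP2 (adjusted p = 6.10e-04) and 0.52 ± 0.10 for DUSP4 (adjusted p = 5.94e-05). They were -1.92 ± 0.14 for DUSP5 (adjusted p = 9.33e-13) and -0.37 ± 0.11 for DUSP7 (adjusted p = 0.00432). DUSP8 had -3.91 ± 0.27 (adjusted p = 2.46e-13), DUSP10 -0.50 ± 0.10 (adjusted p = 5.34e-05) and DUSP14 -0.72 ± 0.13 (adjusted p = 2.42e-05). DUSP16 did not pass (0.33, adjusted p = 0.0953) but did without replicate 3 of week 2 off drug (adjusted p = 0.0104) and without replicate 1 of the rechallenged cells (0.0383). DUSP1 did not pass (0.29, adjusted p = 0.166) but did without replicate 2 of week 2 off drug (0.0171).

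The responses to the second and the first withdrawal differed for 6 of the 10, where 17.1% of all genes did. As changes at week 4 off drug from week 3 rechallenged minus those at week 2 off drug from week 1, the differences were -0.79 ± 0.17 for DUSP1 (adjusted p = 8.08e-04) and 0.96 ± 0.10 for DUSP4 (adjusted p = 1.57e-08). They were -0.87 ± 0.09 for DUSP6 (adjusted p = 1.38e-08) and 0.83 ± 0.21 for DUSP8 (adjusted p = 0.00542). DUSP10 had -1.19 ± 0.10 (adjusted p = 8.09e-11) and DUSP16 1.26 ± 0.16 (adjusted p = 9.48e-07). The DUSP8 difference did not pass without replicate 2 of week 4 off drug (adjusted p = 0.0569).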

How the results depend on the processing

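Of 1139 values of the 10 DUSP genes under the alternatives other than leaving out a library, 1106 kept their direction and their side of the threshold, as did 1173 of 1230 with a library left out. No called change turned its direction in any of them. The calls at week 2 off drug against untreated cells, at week 1 against 20 hours and at week 4 off drug against the rechallenged cells did not change in number under any alternative. The count for week 4 against week 3 of continuous drug, 4 of 10, ranged from 1 to 4 with a library left out. RLE factors changed no call. DESeq2 changed 3, among them DUSP16 at 20 hours (adjusted p = 0.0506). Over all genes, the compared groups alone gave 2751 calls for week 3 against week 2 of continuous drug, where all groups gave 4367. For week 4 against week 3, where all libraries gave 1420, leaving out the libraries standing apart gave 2173. Without the count filter 8 calls were lost, 4 of them for DUSP2.

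Replicate numbers did not pair the libraries: 3 of 126 same-number pairs had correlated deviations over 0.1 (median -0.001), and 12 of 29 libraries correlated best with their own number. With the replicate block the count moved to 8 from 7 for week 3 against week 2 of continuous drug (DUSP5, adjusted p = 0.0455), to 8 from 9 for rechallenged cells against week 2 off drug (DUSP2, 0.0553) and to 4 from 5 between the off-drug groups (DUSP7, 0.0518). It changed no other call.

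Depth limits DUSP2 (all groups under 3 CPM) and DUSP8 without drug (5 to 11 counts per untreated library). The week 4 continuous group has only 2 libraries. How reads in the exon bases that DUSP6 shares with its antisense gene were assigned is not known, and the course has no late untreated cells.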
